A study of Mus musculus with 6 samples.

Results

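The cytosolic chaperones of the HSP70, HSP90 and DNAJ families were described here in B cells of mouse Peyer's patches. The 10 genes were chosen by symbol from 39179 Ensembl gene identifiers: Hspa8, Hspa4, Hspa1a and Hspa1b (HSP70 and HSP110 families), Hsp90ab1 and Hsp90aa1 (HSP90), Dnaja1 and Dnajb1 (DNAJ), Stub1 (the ubiquitin ligase CHIP) and Hsf1 (heat shock factor 1). The genes were named by symbol, with no threshold on a measured value, and all 10 were found. RNA-Seq was performed on GC B cells (Fas+GL7+) and on resting, or naive, B cells (Fas-GL7-), both sorted from Peyer's patches. All mice were wild-type C57BL/6 littermates, female and 12 wk old, and received no treatment named in the labels. Each population was analyzed in 3 pools, each made from 5 mice, so the spread given below is between pools and not between single animals. The values are TPM (transcripts per 1000000 transcripts, a level per transcript length that can be compared between genes), and the question addressed is how the level of each chaperone compared between the GC and the resting state.

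HSP70 proteins bind stretches of unfolded protein in cycles of ATP hydrolysis that DNAJ proteins start and nucleotide exchange factors end, and they hand a set of clients, kinases and transcription factors among them, to the HSP90 dimer. CHIP can mark chaperone clients for degradation. HSF1 is the transcription factor that raises the stress-inducible members, such as Hspa1a and Hspa1b, upon heat shock, whereas Hspa8 and Hsp90ab1 are made constitutively.

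The labels of both populations were checked first with marker genes. Bcl6, the transcription factor of the GC state, was at 249.8 ± 8.14 TPM (SD, n = 3 pools) in GC B cells and at 49.2 ± 2.33 TPM in naive B cells. Fas, which was used in the sort and so is no independent check, was at 114 ± 5.55 and 3.22 ± 0.314 TPM. Of the genes of resting B cells, Klf2 was at 4.16 ± 0.930 TPM in GC B cells and at 287 ± 41.2 TPM in naive B cells, and Ccr7 at 1.01 ± 0.336 and 87.6 ± 8.46 TPM. The 6 T cell markers summed to at most 3.68 TPM in any pool, and none of them passed the filter on low values. Of 7 myeloid markers, S100a8 and S100a9 were listed at 0 in every pool, and the list summed to between 0.836 and 2.31 TPM in the pools of GC B cells and between 3.96 and 7.07 TPM in those of naive B cells. The 3 plasma cell markers summed to at most 7.07 TPM in any pool, and of 5 stromal and endothelial markers 4 stayed under 1 TPM in every pool. The exception, Pecam1, which B cells also express, was at 23.3 ± 1.22 TPM in GC B cells and at 126 ± 5.55 TPM in naive B cells (log2 difference -2.38, limma adjusted p = 5.14e-07). The 8 intestinal epithelial markers summed to between 52.1 and 113 TPM in the pools of GC B cells and to between 131 and 169 TPM in those of naive B cells. Of the 7 that could be tested, 5 were lower and 1 was higher in GC B cells, beside 30.1% and 35.5% of all genes tested. These counts depended on single pools. Without naive replicate 1 the lower calls of Fabp2, Vil1 and Krt20 were lost. Those of Fabp2 and Krt20 were also lost without GC replicate 1, GC replicate 3, naive replicate 2 or naive replicate 3. The higher call, of Krt18, was lost without GC replicate 3, naive replicate 2 or both pools numbered 1. Krt8 alone kept its call in all 16 alternatives. The part of epithelial RNA in the chaperone values was not tested. Depth was estimated at 9750000 to 16200000 reads per pool from the steps between low values. Fewer cells of a type and less RNA per cell cannot be told apart in these bulk pools.

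6 members were higher in GC B cells than in naive B cells, 1 was lower, 2 did not pass the test and 1 was too low to be tested. Hspa8, Hspa4, Hsp90ab1, Hsp90aa1, Dnaja1 and Dnajb1 rose by between 1.53- and 2.22-fold, and Hsf1 fell to 0.668 of its naive level. The test was limma on log2(TPM + 1), with a Benjamini-Hochberg adjusted p under 0.05 over the 12785 genes that reached 1 TPM in 3 or more pools. Changes were widespread in this comparison. Of all genes tested, 65.6% passed, 35.5% as higher and 30.1% as lower in GC B cells, and the pools of both groups did not overlap for 70.7%. Among the 9 members tested, 7 passed, 6 as higher (66.7%), and 7 had pools that did not overlap. Their median log2 difference was 0.73, beside 0.03 over all genes tested. The 10 members together made up 0.431% ± 0.00797 (SD, n = 3) of all TPM in GC B cells and 0.247% ± 0.0142 in naive B cells.

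**Figure D1:**
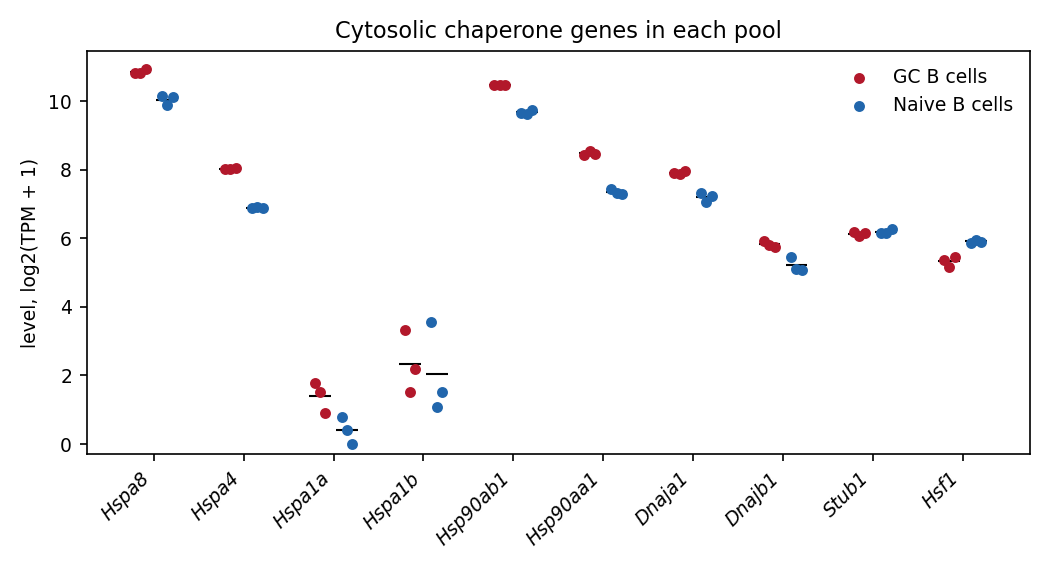
Level of the 10 chaperone genes in each pool. The y axis is log2(TPM + 1), each point is 1 pool of 5 mice, red points are GC B cells, blue points are naive B cells, and the bar is the mean of 3 pools. Points of both populations are apart for 8 genes and overlap for Hspa1b and Stub1, and Hsf1 is the member that is lower in GC B cells.

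Hspa1a and Hspa1b, the stress-inducible HSP70 genes, are shown here by sequence because they could not be separated well. They lie next to each other on chromosome 17 (GRCm38.p6), Hspa1b (ENSMUSG00000090877) at chr17:34956429-34959238 and Hspa1a (ENSMUSG00000091971) at chr17:34969359-34972156. Their coding sequences were identical at 1918 of the 1926 bases of Hspa1a (99.6%), and 62.1% of the 50-base words of the Hspa1b transcript were also found in Hspa1a. RSEM divides reads that fit both genes by a model, so that each of their single values is less certain than their sum. For 7 of the other 8 members no such word was found in another protein-coding transcript, and for Dnajb1 12 of 2214 were. The promoters, taken from RefSeq for GRCm38.p6, were compared over the 250 bases before the transcription start. The motif bound by HSF1 is built from inverted GAA units, and was searched on both strands as GAANNTTC or TTCNNGAA, each of which is its own reverse complement, with overlaps allowed. No promoter entry was matched for Hspa8, Hsp90aa1, Hsp90ab1 or Hsf1. Of the 6 members with a promoter entry, 4 held it, as did 12.8% of 32851 promoters of this length and 14.5% of 27025 genes. Hspa1a and Hspa1b, whose promoters are nearly identical, are both among the 4 and are not independent hits. The 4 promoters are printed with the motif in capitals.
Hspa1b, chr17:34959239-34959488, minus strand: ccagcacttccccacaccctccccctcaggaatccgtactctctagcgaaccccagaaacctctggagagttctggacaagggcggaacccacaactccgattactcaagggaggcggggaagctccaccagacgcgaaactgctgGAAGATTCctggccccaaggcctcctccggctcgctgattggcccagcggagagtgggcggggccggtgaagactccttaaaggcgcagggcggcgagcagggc
Hspa1a, chr17:34972157-34972406, minus strand: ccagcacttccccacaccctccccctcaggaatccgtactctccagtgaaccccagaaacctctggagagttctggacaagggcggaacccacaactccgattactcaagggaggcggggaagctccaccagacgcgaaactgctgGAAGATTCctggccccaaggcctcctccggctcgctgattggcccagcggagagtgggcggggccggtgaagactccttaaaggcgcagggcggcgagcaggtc
Dnaja1, chr4:40722218-40722467, plus strand: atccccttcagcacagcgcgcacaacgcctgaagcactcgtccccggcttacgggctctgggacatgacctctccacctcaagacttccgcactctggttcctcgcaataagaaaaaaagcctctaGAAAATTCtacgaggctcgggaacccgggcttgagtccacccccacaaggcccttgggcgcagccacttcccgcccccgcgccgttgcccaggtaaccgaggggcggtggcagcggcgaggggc
Stub1, chr17:25832920-25833169, minus strand: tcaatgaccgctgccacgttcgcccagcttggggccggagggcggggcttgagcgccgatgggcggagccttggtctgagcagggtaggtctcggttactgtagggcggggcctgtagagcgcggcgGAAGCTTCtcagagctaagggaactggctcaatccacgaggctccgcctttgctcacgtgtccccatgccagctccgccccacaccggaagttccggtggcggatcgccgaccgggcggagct

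From Hspa1b to Hspa1a the printed promoters differ at 3 of 250 positions, T44C, C47T and G249T, counted from 1 at the first base printed. The motif starts 104 bases before the start site in both, 124 bases before it in Dnaja1 (at the first of 3 start sites) and 123 bases before it in Stub1. It was not in the windows of Hspa4 or of the 2 start sites of Dnajb1, and its longer form of 3 units in a row, GAANNTTCNNGAA or TTCNNGAANNTTC, was in none of the members' windows and in 0.466% of all promoters. Of the members that hold the motif, Dnaja1 rose, Stub1 and Hspa1b did not pass the test and Hspa1a was too low for it, and both members without it in this window, Hspa4 and Dnajb1, rose. Whether members with and without it differ was not tested. A match is a description of the letters, not of binding.

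Hspa8 (ENSMUSG00000015656, chr9:40801276-40805202 in GRCm38.p6, as for the positions that follow), the constitutive HSP70 of the cytosol (HSC70), was the most abundant member in every pool. It was at 1819.85, 1818 and 1943 TPM in replicates 1, 2 and 3 of GC B cells, and at 1132, 946 and 1102 TPM in naive replicates 1, 2 and 3. All GC pools were above all naive pools, and the lowest naive value was in replicate 2. The difference was 0.81 on the log2 scale (SE 0.07, 95% confidence interval 0.63 to 0.99, limma adjusted p = 0.000123), a 1.76-fold rise. Hspa8 ranked 76th among the genes tested by mean TPM in GC B cells and 145th in naive B cells.

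Hspa4 (ENSMUSG00000020361, chr11:53259814-53300479), an HSP110 protein that exchanges the nucleotide of HSP70, was measured very evenly. Its values were 261, 259 and 264 TPM in the pools of GC B cells and 116, 118 and 117 TPM in those of naive B cells. The GC pools were all more than 2 times as high as any naive pool. On the log2 scale Hspa4 differed by 1.15 (SE 0.04, 95% interval 1.06 to 1.24, limma adjusted p = 9.79e-07), or 2.22-fold. The coefficient of variation was 1.02% among GC pools and 0.977% among naive pools, the latter the lowest of the 10 members in naive B cells.

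Hspa1b, by contrast, varied more within each population than between them. It was at 9.03, 1.84 and 3.51 TPM in replicates 1, 2 and 3 of GC B cells, and at 10.8, 1.12 and 1.83 TPM in naive replicates 1, 2 and 3. Replicate 1 was the highest pool in both populations, and the groups overlapped. The log2 difference was 0.29 with an interval from -1.52 to 2.09 (limma adjusted p = 0.757), wide enough to hold a change of the size seen for Hspa8 in either direction. It was -0.21 without GC replicate 1 (adjusted p = 0.831) and -0.19 without naive replicate 2 (adjusted p = 0.847). Hspa1a was at 2.44, 1.87 and 0.878 TPM in GC B cells and at 0.743, 0.328 and 0 TPM in naive B cells. Every GC pool was above every naive pool, but Hspa1a reached 1 TPM in 2 pools only and so did not enter the test. With no filter on low values Hspa1a passed as higher in GC B cells (limma adjusted p = 0.0419), and its log2 difference had a 95% interval of 0.26 to 1.74. These levels rest on an estimated 53.2, 37.3 and 17.3 reads in the GC pools and 17.8, 10.7 and 0 reads in the naive pools.

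The sum of Hspa1a and Hspa1b depends little on how reads were divided between them, as their transcripts have 2926 and 2803 bases. Some 50-base words of both are also found in Hspa1l. The sum was 11.5, 3.71 and 4.39 TPM in the pools of GC B cells and 11.5, 1.45 and 1.83 TPM in those of naive B cells. These values overlapped (exact permutation test over pools, two-sided p = 0.6, n = 3 per group). Both genes together made up 0.352% ± 0.238 (SD, n = 3) of the summed Hspa8, Hspa1a and Hspa1b in GC B cells and 0.442% ± 0.489 in naive B cells, and at most 1.01% in any pool. The summed level of the 3 genes was 1867 ± 69.9 TPM in GC B cells and 1065 ± 103 TPM in naive B cells. Their pools did not overlap (two-sided exact permutation p = 0.1, the smallest that 3 against 3 pools allow).

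**Figure D2:**
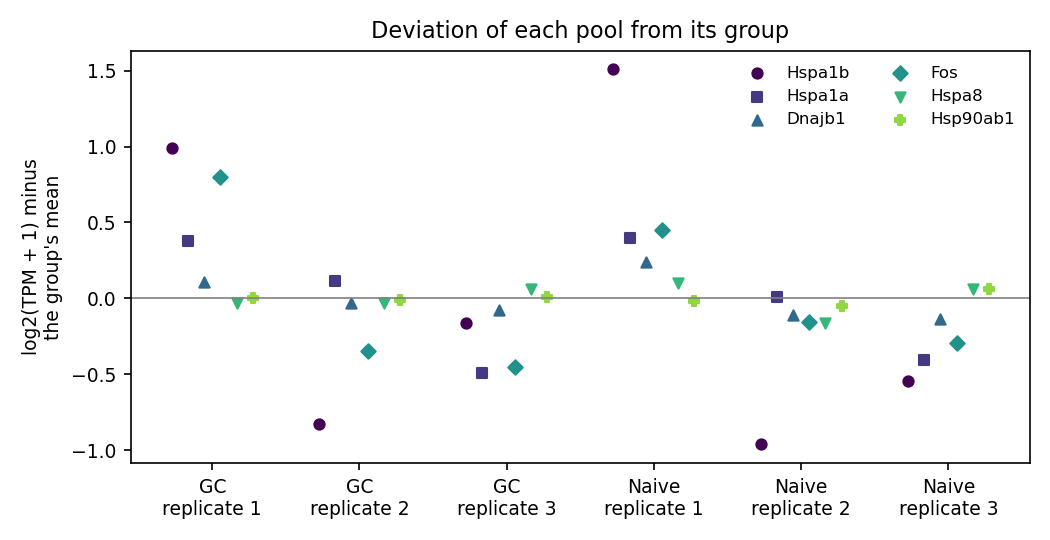
Deviation of each pool from the mean of its population on the log2(TPM + 1) scale (y axis) for 6 genes, with the 6 pools on the x axis. Hspa1b, Dnajb1 and Fos are highest in replicate 1 of both populations, whereas Hsp90ab1 stays close to 0 in every pool.

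Dnajb1 (ENSMUSG00000005483, chr8:83608175-83612653), a stress-inducible DNAJ protein (HSP40), was also highest in replicate 1 of each population. It was at 60.0, 54.4 and 52.8 TPM in the pools of GC B cells and at 42.9, 33.5 and 32.8 TPM in those of naive B cells. Unlike Hspa1b, its GC pools were all above its naive pools. The log2 difference was 0.61 (SE 0.11, 95% interval 0.33 to 0.89, limma adjusted p = 0.00348), or 1.53-fold, and it was 0.68 (adjusted p = 0.00261) without both pools numbered 1, an alternative chosen after these values were seen. Among 15 immediate early genes, 11 were highest in replicate 1 of GC B cells and 10 in replicate 1 of naive B cells. Of the 10 members 4 and 6 were highest in these pools, and of 8 epithelial markers 0 and 7. The share over all genes was not computed, so these counts have no background beside them. Fos, named after its values were seen, was highest there in both, with 19.4, 8.24 and 7.58 TPM in the pools of GC B cells and 7.37, 4.49 and 3.98 TPM in those of naive B cells. Egr1, also named after its values were seen, was lowest there in both, with 35.0, 53.6 and 53.4 TPM in the pools of GC B cells and 28.3, 41.7 and 35.1 TPM in those of naive B cells. The labels do not say what the pools numbered 1 share, and the cause of their higher values was not tested.

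Dnaja1 (ENSMUSG00000028410, chr4:40722468-40734965), a DNAJ partner of HSP70, was the more abundant of both DNAJ members. It was at 239.9, 235 and 248 TPM in the pools of GC B cells and at 158, 131 and 148 TPM in those of naive B cells. The groups did not overlap, and as for Hspa8 naive replicate 2 was the lowest pool. The log2 difference was 0.73 (SE 0.07, 95% interval 0.55 to 0.90, limma adjusted p = 0.000178), or 1.65-fold. Relative to 100 TPM of Hspa8, Dnaja1 stood at 13.0 ± 0.203 TPM (SD, n = 3) in GC B cells and at 13.8 ± 0.257 TPM in naive B cells, a ratio of 0.943, so that both genes moved by nearly the same factor. The ratios did not overlap between the groups (exact permutation p = 0.1, the smallest possible).

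Hsp90ab1 (ENSMUSG00000023944, chr17:45567778-45573261), the constitutive HSP90 of the cytosol, was at 1419, 1409.98 and 1424 TPM in the pools of GC B cells and at 807, 787 and 852 TPM in those of naive B cells. The GC pools had a coefficient of variation of 0.512%, the smallest of the 10 members, and all were above the naive pools. The log2 difference was 0.80 (SE 0.04, 95% interval 0.70 to 0.90, limma adjusted p = 7.85e-06), a 1.74-fold rise. Hsp90aa1 (ENSMUSG00000021270, chr12:110691036-110696395), its inducible paralog with 76.4% identical coding bases, was at 343, 375 and 349 TPM in the pools of GC B cells and at 171, 160.4 and 156 TPM in those of naive B cells. It too was separated between the populations, and by a larger factor, with a log2 difference of 1.12 (SE 0.05, 95% interval 0.99 to 1.26, limma adjusted p = 6.69e-06), or 2.18-fold.

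The composition of cytosolic HSP90 was also compared. Hsp90aa1 made up 19.5%, 21.0% and 19.7% of both genes in the GC pools and 17.5%, 16.9% and 15.5% in the naive pools. Every GC pool had the higher share, and the difference was 3.41 percentage points (two-sided exact permutation p = 0.1, the smallest possible). Together the genes reached 1773 ± 11.8 TPM (SD, n = 3) in GC B cells and 978 ± 30.4 TPM in naive B cells, a ratio of 1.81, again without overlap and at the smallest p of 0.1.

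**Figure D3:**
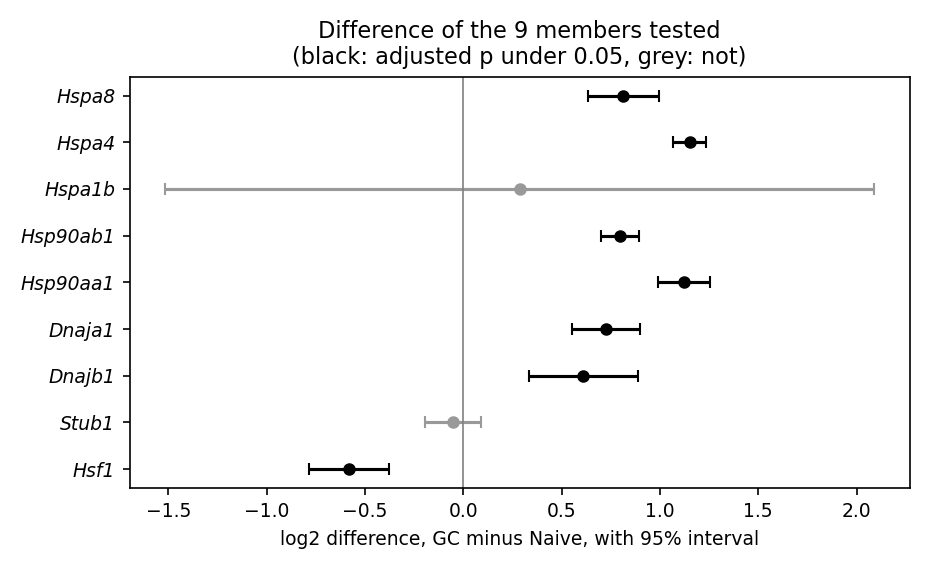
Difference between GC and naive B cells for the 9 members tested. The x axis is the log2 difference of GC minus naive, points are the limma estimates from 3 pools per population, bars are 95% confidence intervals, and black marks genes with an adjusted p under 0.05. The intervals of 6 genes lie above 0, that of Hsf1 lies below 0, and those of Stub1 (-0.20 to 0.09) and Hspa1b (-1.52 to 2.09) include it.

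Stub1 (ENSMUSG00000039615, chr17:25830634-25832919), which encodes the ubiquitin ligase CHIP that docks on HSP70 and HSP90 and marks their clients, was the member with the smallest difference. It was at 71.9, 65.6 and 70.2 TPM in the pools of GC B cells and at 70.1, 69.6 and 75.7 TPM in those of naive B cells, and the groups overlapped. Stub1 had a log2 difference of -0.05, and its 95% interval of -0.20 to 0.09 leaves out a rise of the size seen in the other abundant members (limma adjusted p = 0.475). Its level relative to its chaperone partners was lower in GC B cells. Per 100 TPM of summed Hsp90aa1, Hsp90ab1 and Hspa8, it stood at 2.01, 1.82 and 1.89 TPM in the pools of GC B cells and at 3.32, 3.68 and 3.59 TPM in those of naive B cells, with no overlap (exact permutation p = 0.1, the smallest possible).

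Hsf1 (ENSMUSG00000022556, chr15:76477362-76501155), which encodes the factor that controls the heat shock response, moved against the chaperones. It was at 40.3, 34.8 and 42.6 TPM in the pools of GC B cells and at 57.4, 61.1 and 58.6 TPM in those of naive B cells. Every GC pool was below every naive pool. On the log2 scale the difference was -0.58 (SE 0.08, 95% interval -0.78 to -0.38, limma adjusted p = 0.00101). These are transcript levels, and HSF1 is regulated as a protein, which RNA-Seq does not measure.

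The order of the members by level was similar in both populations, with a pair of exchanges. In GC B cells it ran from Hspa8 over Hsp90ab1, Hsp90aa1, Hspa4, Dnaja1, Stub1, Dnajb1, Hsf1 and Hspa1b to Hspa1a, and only the last neighbours, Hspa1b and Hspa1a, overlapped in their pools. In naive B cells Dnaja1 stood before Hspa4, and Hsf1 stood before Dnajb1. There the pools of Hsp90aa1 (156 to 171 TPM) and Dnaja1 (131 to 158 TPM) overlapped, and those of all other neighbours did not. Hspa8, Hsp90ab1 and Hsp90aa1 together made up 84.4% ± 0.368 (SD, n = 3) of the members' summed TPM in GC B cells and 82.4% ± 0.487 in naive B cells.

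Other cytosolic chaperones and cochaperones were described from 8 lists of 73 matched genes, of which 63 could be tested and 52 were called, 40 as higher and 12 as lower in GC B cells. Bag2, Bag3 and Hsf4 were under 1 TPM in every pool of 1 population and passed the filter through the other alone. Without such genes 38 of 60 were higher (63.3%) and 11 lower (18.3%), beside 33.4% and 29.6% of 11831 genes treated the same way, and the median log2 difference was 0.40. Without both pools numbered 1, 31 were higher and 4 lower of 60 tested, beside 28.5% higher and 23.1% lower over all genes in that setting. Among 6 other genes of the HSP70 and HSP110 families that were tested, 4 rose and none fell. Hspa2, an HSP70 best known from the testis, was at 49.4 ± 2.69 TPM (SD, n = 3) in GC B cells and at 3.15 ± 0.332 TPM in naive B cells, a log2 difference of 3.61 (limma adjusted p = 5.14e-07). Hsph1, the HSP110 relative of Hspa4, rose by 1.18 and Hspa14 by 0.81 on the log2 scale.

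Of 9 HSP70 cochaperones, Bag2 and Bag3 were under 1 TPM in every naive pool and entered the test through the GC pools alone, so that they had to differ and are given by their levels only. Of the other 7, 4 rose (beside 33.4% of all genes without such genes) and 3 did not pass. Without both pools numbered 1 the call of Bag4 was lost and 3 rose, and with deposited FPKM, quantile normalization or median ratio scaling Bag5 and Bag6 were called lower. Bag2, a nucleotide exchange factor that inhibits CHIP, was at 12.2, 10.4 and 12.2 TPM in the pools of GC B cells and at 0.608, 0.712 and 0.387 TPM in those of naive B cells. Bag3, an inducible BAG protein that couples HSP70 to autophagy, was at 2.48 ± 0.461 TPM in GC B cells and at 0.374 ± 0.0532 TPM in naive B cells. Stip1 (HOP), which links HSP70 to HSP90, rose by 1.13 to 149.9 ± 3.70 TPM. The most abundant gene of the list, Bag6, which binds exposed hydrophobic stretches, had a difference of -0.13 (adjusted p = 0.0768, and called lower in 3 of 16 alternatives).

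All 16 HSP90 cochaperones passed the test, 11 as higher and 5 as lower, beside 35.5% and 30.1% of all genes, but several calls were narrow. Unc45a (adjusted p = 0.0459) lost its call in 11 of 16 alternatives and Ttc4 (adjusted p = 0.0296) in 6, and without both pools numbered 1 there were 9 higher and 0 lower. The immunophilin Fkbp5, which binds steroid receptor complexes, showed the largest difference of 1.31, followed by Nudc with 1.05 and by Fkbp4, the second such immunophilin, with 0.94. Ppp5c, a phosphatase that binds HSP90 and the most abundant of the list by its mean over both populations, fell by 0.31 from 172 ± 15.0 TPM in naive B cells (limma adjusted p = 0.00935). The HSP90 cochaperones summed to 1380.05 ± 6.83 TPM (SD, n = 3) in GC B cells and 1061 ± 9.03 TPM in naive B cells.

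The other cytosolic DNAJ proteins moved in both directions, with 7 of 15 tested higher and 5 lower, near the shares over all genes (35.5% and 30.1%), and a median difference of 0.17. These counts depended on the scaling, the block and single pools. They were 4 higher and 5 lower with deposited FPKM or median ratio scaling, 3 and 5 with quantile normalization and 3 and 3 with the replicate block. Leaving out GC replicate 1 or naive replicate 1 gave 4 higher and 3 lower, leaving out naive replicate 2 gave 3 of each, and leaving out GC replicate 2 or GC replicate 3 gave 4 higher. Dnajc9, which assists HSP70 on histones, rose by 1.11 to 200.4 ± 4.49 TPM. Dnajb2 fell by 2.02, from 18.05 ± 0.667 TPM in naive B cells to 3.72 ± 0.780 TPM in GC B cells, and Dnajb5 fell by 0.71. Dnajc7, which binds both HSP70 and HSP90 and was the most abundant of this list, fell by 0.60 from 717 ± 30.2 TPM to 471 ± 18.1 TPM (limma adjusted p = 6.36e-05). Dnajb6, a suppressor of protein aggregation named here after its values were seen, was at 530.1, 105 and 100.3 TPM in the pools of GC B cells and at 81.9, 87.7 and 231 TPM in those of naive B cells. A single pool stood far above the rest in each population, GC replicate 1 and naive replicate 3, and no difference was called (0.58, 95% interval -1.19 to 2.35, limma adjusted p = 0.518). The difference of Dnajb6 was -0.21 without GC replicate 1 and -0.47 without both pools numbered 1, but 1.06 without naive replicate 3, 0.96 without GC replicate 2 and 0.99 without GC replicate 3, and none of these passed the test.

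**Figure D4:**
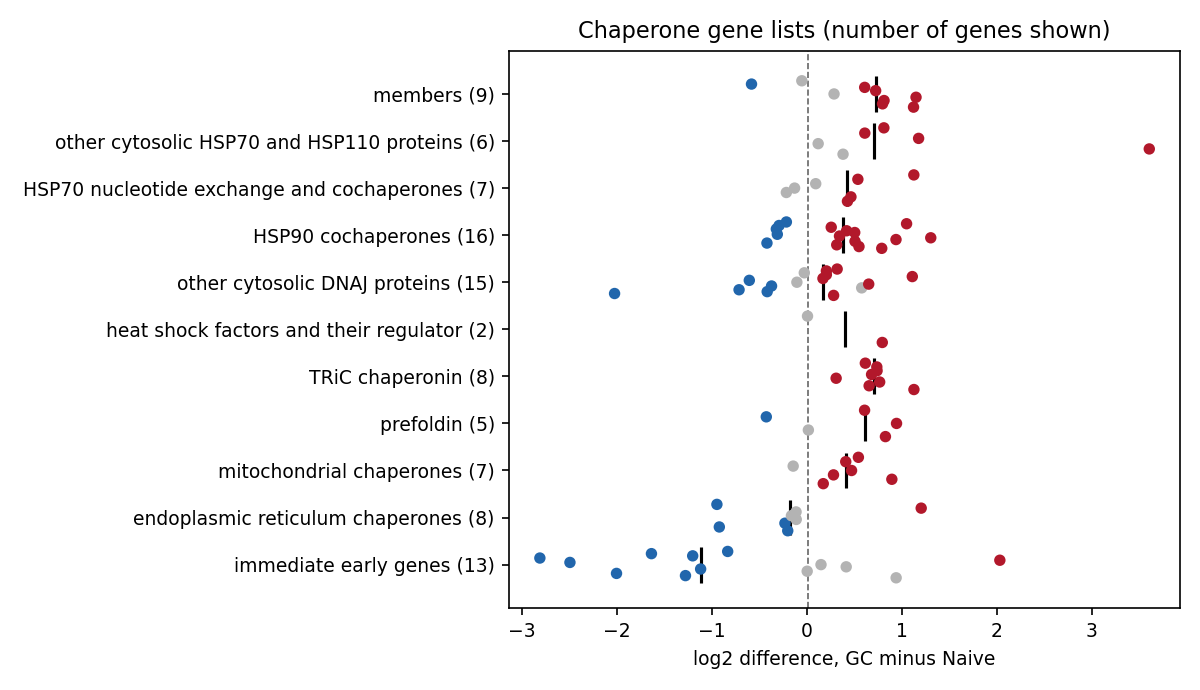
Log2 difference of GC minus naive (x axis) for each tested gene of the members and 10 other lists (y axis, number of genes shown in parentheses), leaving out Bag2, Bag3 and Hsf4, which entered the test through 1 population alone. Red points are higher and blue points lower at an adjusted p under 0.05, grey points did not pass, black bars are the lists' medians and the dashed line is the median of all genes tested without such genes (0.01). All 8 TRiC subunits lie to the right of the line, and most immediate early genes to the left.

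The TRiC chaperonin is the ring that folds actin and tubulin. All 8 of its subunits rose, beside 35.5% of all genes, by between 0.31 (Cct4) and 1.13 (Tcp1), with a median of 0.71. Cct3 rose by 0.77 and Cct6a by 0.74, and the most abundant subunit, Cct8, was at 347 ± 14.0 TPM (SD, n = 3) in GC B cells and at 226 ± 11.9 TPM in naive B cells. Prefoldin, which delivers such clients to TRiC, was split. Of 5 matched subunits, Pfdn4 (0.95), Pfdn1 (0.83) and Vbp1 (0.61) rose, Pfdn2 did not pass, and Pfdn5, the most abundant, fell by 0.43 from 475 ± 15.0 TPM. Small heat shock proteins were at or near 0. Of 7 matched, Hspb2, Hspb3 and Hspb8 were listed at 0 in every pool, and Hspb6 alone could be tested (4.22 ± 0.710 TPM in naive B cells, difference -0.07, limma adjusted p = 0.733). Among other heat shock factors, Hsf2 was low but rose by 0.80, from 2.93 ± 0.0610 to 5.81 ± 0.184 TPM. Hsf4 entered the test through the naive pools alone, at a level of at most 1.67 TPM in any pool. Because it had to differ, no change is read from it. Hsbp1, which binds HSF1, had a difference of 0.01 (adjusted p = 0.912) at 81.0 ± 1.24 TPM in GC B cells.

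Chaperones of other compartments were compared by gene. Hsp90b1 (GRP94), the HSP90 of the endoplasmic reticulum that folds integrins and Toll-like receptors, was at 151, 153 and 153 TPM in the pools of GC B cells and at 293, 272 and 304 TPM in those of naive B cells. It was lower in every GC pool, with a log2 difference of -0.92 (SE 0.05, limma adjusted p = 1.11e-05), opposite to both cytosolic HSP90 genes. The ratio of cytosolic HSP90 to Hsp90b1 was 11.6 ± 0.0392 (SD, n = 3) in GC B cells and 3.38 ± 0.0902 in naive B cells (exact permutation p = 0.1, the smallest possible). Hspa5 (BiP), the HSP70 of the endoplasmic reticulum, was at 285 ± 12.8 TPM and 327 ± 17.0 TPM, a difference of -0.20 (adjusted p = 0.0183) that did not pass without GC replicate 2, GC replicate 3, naive replicate 1, naive replicate 3 or both pools numbered 1. The ratio of Hspa8 to Hspa5 was 6.55 ± 0.387 and 3.24 ± 0.146. Of 8 chaperones of the endoplasmic reticulum, 4 fell and 1 rose, so that 5 of 8 were called, beside 65.6% of all genes. The number lower was 5 under each of 3 other scalings, 3 without GC replicate 2, GC replicate 3, naive replicate 1 or naive replicate 3, and 2 without both pools numbered 1. Sil1, the exchange factor of BiP, fell by 0.95, and Dnajc10, a DNAJ protein that reduces disulfides, rose by 1.21. In mitochondria, 6 of 7 chaperones rose, beside 35.5% of all genes, and 1 did not pass. The count was 5 higher and 1 lower with deposited FPKM or median ratio scaling, 4 and 1 with quantile normalization, and 3 and 0 without both pools numbered 1. Hspd1 (HSP60) rose by 0.90, Grpel2 by 0.54 and Trap1, the mitochondrial HSP90, by 0.47, whereas Hspe1, its most abundant gene, rose by 0.28, a call lost under each of 3 other scalings.

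**Figure D5:**
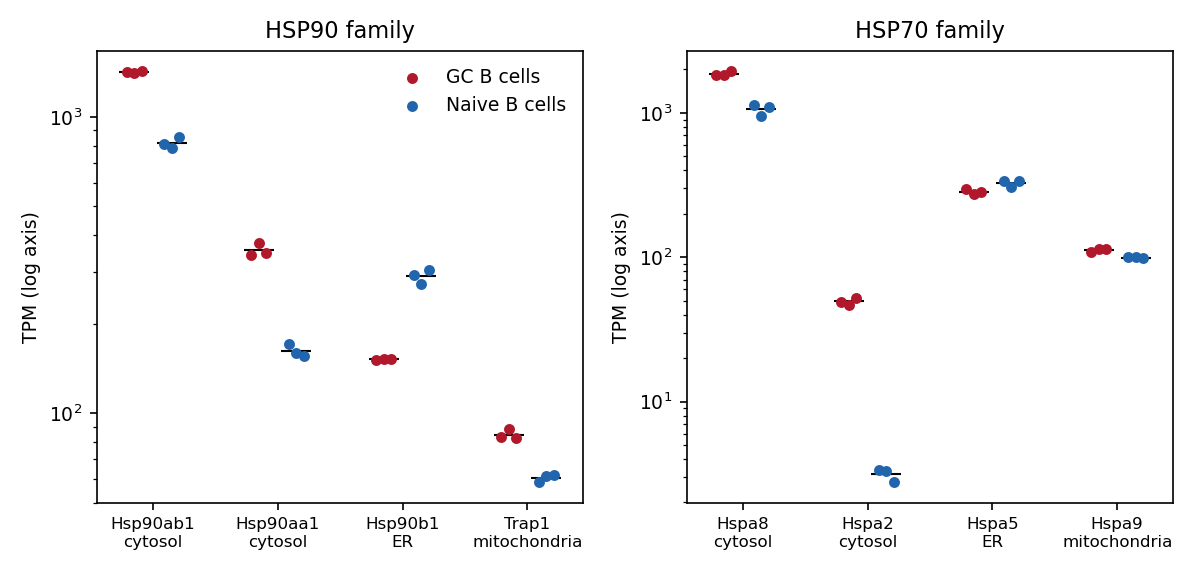
Level in TPM on a log axis of HSP90 (left) and HSP70 (right) genes of the cytosol, endoplasmic reticulum (ER) and mitochondria. Each point is 1 pool, red for GC and blue for naive B cells, and the bar is the mean of 3 pools. Both cytosolic HSP90 genes are higher in GC B cells while Hsp90b1 is lower, and Hspa2 shows the widest gap.

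Immediate early genes, which respond within minutes to activation and also to the handling of tissue, were listed beside the inducible chaperones. Of 13 tested, 8 were lower and 1 was higher in GC B cells, beside 30.1% and 35.5% over all genes. The number higher was 3 with the replicate block, where Fos and Egr1 passed, 2 without GC replicate 1, GC replicate 3 or naive replicate 1, and 3 of 12 without both pools numbered 1, where 7 were lower. Nr4a1 fell by 2.81 and Ier2 fell by 2.49, and Zfp36, the most abundant by its mean over both populations, fell by 1.64, from 344 ± 9.31 TPM in naive B cells to 110.0 ± 6.98 TPM. Dusp1 rose by 2.03. Most calls within this list were thus lower in GC B cells, with Dusp1 going the other way. The part of sorting and dissociation in the values of this list and in those of the chaperones was not tested.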

How the data were processed

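RNA-Seq values of 6 pools (3 GC, 3 naive) were used. The authors removed adapters with cutadapt 1.9, estimated levels with RSEM 1.2.25 against transcripts of NCBIm38 (v75) and deposited FPKM per gene and pool. TPM was computed here as FPKM divided by the pool's total and multiplied by 1000000. Only 65.4% to 70.2% of low values lay within 0.1 of a whole number of reads, so no count test was used and depths are approximate. TPM at or above 1 in at least 3 pools was required, a pseudocount of 1 was added before log2, which understates changes of low genes, and limma 3.58.1 (R 4.3.3) was fitted without pairing, with a trend. Simulated data were used only to check that the fit ran as written. Few genes were changed in them, all upward, unlike the widespread changes in both directions here. Sums and shares were compared with two-sided exact permutation tests over 20 splits (scipy 1.17.1).

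The members and lists were chosen with earlier results of these data known. All members were named. From each further list, up to 3 genes with the largest called difference and the most abundant gene were named, and exceptions are stated. Some genes of these lists are not reported here. Pfdn6 and Ighd had no match by symbol. Symbols came from GENCODE vM1 (33398 of 39179 identifiers), and positions and promoters from RefSeq for GRCm38.p6, matched by symbol. Transcript likeness was computed from GENCODE vM1 protein-coding transcripts. Alternatives covered pseudocounts of 0.1 and 0.01, filters, FPKM as deposited, quantile normalization, median ratio scaling, the replicate block, no trend, and leaving out pools.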

Additional observations from a re-analysis of the deposited data

How the results depend on the processing

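Among 212 alternative values for 16 results, 4 reversed. Another 207 kept their direction and their side of the threshold or, for counts, stayed within 1.5 times. For sums and shares the exact p could not reach the threshold, so only their direction could change. Hspa1a, otherwise not tested, passed without a filter on low values (limma adjusted p = 0.0419). The count of members called lay between 7 and 8 (8 in that setting), and that of other cytosolic chaperones and cochaperones between 35 and 51 beside 52. The wider counts include Bag2, Bag3 and Hsf4, which had to differ, wherever these entered the test. Without them the main fit called 38 of 60 as higher and 11 as lower. Leaving out 1 pool at a time moved the log2 difference of Hspa1b between -0.21 and 1.04, with -0.21 without GC replicate 1 and -0.19 without naive replicate 2. The share of Hspa1a plus Hspa1b, a difference of -0.09 percentage points with all pools, lay between -0.234 (without naive replicate 2) and 0.192 (without naive replicate 1) and was 0.055 without both pools numbered 1, and the cause was not tested. With the replicate number as a block, 7 members and 45 of the wider genes passed, Bag2, Bag3 and Hsf4 among the latter. Same-numbered pools correlated at 0.08, 0.02 and 0.05 across genes in their deviations, and differently numbered pools at between -0.07 and 0.03. Naive replicate 2 correlated best with GC replicate 3 (0.030, beside 0.022 with GC replicate 2). Correlations this weak cannot decide whether the numbers are pairs. The labels do not say so, and the main fit was therefore made without pairing. Under the block Hspa1b still did not pass (limma adjusted p = 0.305, beside 0.757 in the main fit). With 3 pools per group, exact tests cannot go below 0.1. Depth limits Hspa1a, which rests on at most an estimated 53.2 reads in a pool.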

Other observations

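The letters of the HSF1 motif were also counted in the promoters of the wider lists, over the same 250 bases. Of all 27025 genes with an entry, 14.5% held the form with 2 units. The form with 2 units was found for Hsph1 among 7 genes of the other HSP70 and HSP110 list with a promoter entry, for Cdc37, Fkbp4 and Nudc among 14 HSP90 cochaperones, for Cct2 and Cct5 among 7 TRiC subunits, and for none of 7 HSP70 cochaperones. It was also found for 4 of 14 other DNAJ genes, 1 of which held the form with 3 units, for 3 of 5 small heat shock genes, 1 of 4 genes of the heat shock factor list, 1 of 6 of the endoplasmic reticulum list and 0 of 5 prefoldin genes. Among 5 mitochondrial chaperones it was found for Hspd1 and Hspe1. Both also held the form with 3 units in a row, which 0.514% of all genes with an entry hold. Overlap between the windows of Hspd1 and Hspe1 was not tested, so they are not read as independent hits. These counts are descriptions of sequence and were not tested against expression.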
